A study of Mus musculus with 16 samples.

Results

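The genes described here are components and receptors of the complement system in mouse brown adipose tissue. They were a fixed list of 9 genes, C1qa, C1qb, C1qc, C3, C4b, Cfb, Cfd, C3ar1 and C5ar1, looked up by symbol among the 15350 genes of the expression values. Of the 9, 8 were measured, and Cfb is not analysed here. The study compared interscapular brown adipose tissue (BAT) of wild-type (WT) and Ucp1-knockout (KO) mice, both on the C57BL/6J strain, after a minipump had delivered saline or isoproterenol, a drug that stimulates beta-adrenergic receptors and so activates this tissue. Isoproterenol was given at 60 mg/kg per day and the tissue was taken after 3 days of infusion. The design has 16 mRNA libraries, 4 each of WT saline, WT isoproterenol, KO saline and KO isoproterenol. The labels give the KO genotype as Ucp1-/-, with no tissue-specific driver. Age and the number of animals behind each library are not stated in the labels, so p-values measure the spread between these libraries, which may be technical.

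Complement is a set of secreted proteases, their substrates, and the receptors that read the products. In the classical pathway C1q, built from A, B and C chains, binds a surface, its partner proteases C1r and C1s cut C4 and C2, and the resulting convertase cuts C3. In the alternative pathway factor D cuts factor B and properdin steadies the convertase, which again cuts C3. The small fragments C3a and C5a are read by the receptors C3aR and C5aR1 on myeloid cells. In fat, factor D is the adipocyte hormone adipsin, C3 is made by adipocytes and stromal cells, and the C1q chains and both receptors are made mainly by macrophages.

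Library depth ran from 9004515 to 20986735 reads, and 1 read was worth 0.0476 to 0.115 CPM (read counts scaled to library size). Ucp1, the deleted gene, was at 2298 to 3449 CPM (WT saline), 8905 to 18458 (WT isoproterenol), 410 to 1156 (KO saline) and 19.0 to 2129 (KO isoproterenol), so reads remained over this gene in the KO libraries. None of the 9 brown adipocyte and 12 pan-adipocyte markers was at 0 reads in any library. Ucp1 is itself among these 9 brown markers, so their sum is not independent of the genotype. In KO isoproterenol the brown markers summed to between 149 CPM in the lowest library and 8360 CPM in the highest. They summed to 6299 to 6650 CPM in KO saline and to 6299 to 26537 CPM over all other groups. Of the 9, 5 were called lower than in KO saline, against 24.8% of all genes. The 4 KO isoproterenol libraries differed from each other more than those of any other group: on the first principal component replicate 1 lay at 176 and its group mates at 57.5 to 107, while the other 12 libraries lay between -62.0 and 3.97. Called differences of members that rest on this group are therefore given with and without replicate 1 below.

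Per kilobase of exon, the order of the members in WT saline was led by Cfd at a mean of 2778 CPM per kb, followed by C3 at 168. The C1q chains came next, with C1qb at 44.0, C1qa at 40.9 and C1qc at 21.2, and C4b followed at 19.6 CPM per kb. The length used merges all annotated exons of a gene, 1088, 1040 and 1931 bases for C1qb, C1qa and C1qc. Before this scaling the 3 chains had means of 47.9, 42.6 and 40.9 CPM, so the lower place of C1qc rests on its length. The receptors were lowest, with C5ar1 at 2.74 and C3ar1 at 1.99. On this scale the library ranges of neighbours overlapped from C1qb through C4b and between the receptors, while Cfd and C3 each stood clear of the next gene, and C4b of the receptors. In KO isoproterenol the levels drew closer together: Cfd stood at 579 CPM per kb, C1qb at 300, C3 at 246, C1qa at 152, C1qc at 115, C3ar1 at 63.2, C5ar1 at 56.9 and C4b at 45.7, with overlapping library ranges from each gene to the next.

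**Figure D1:**
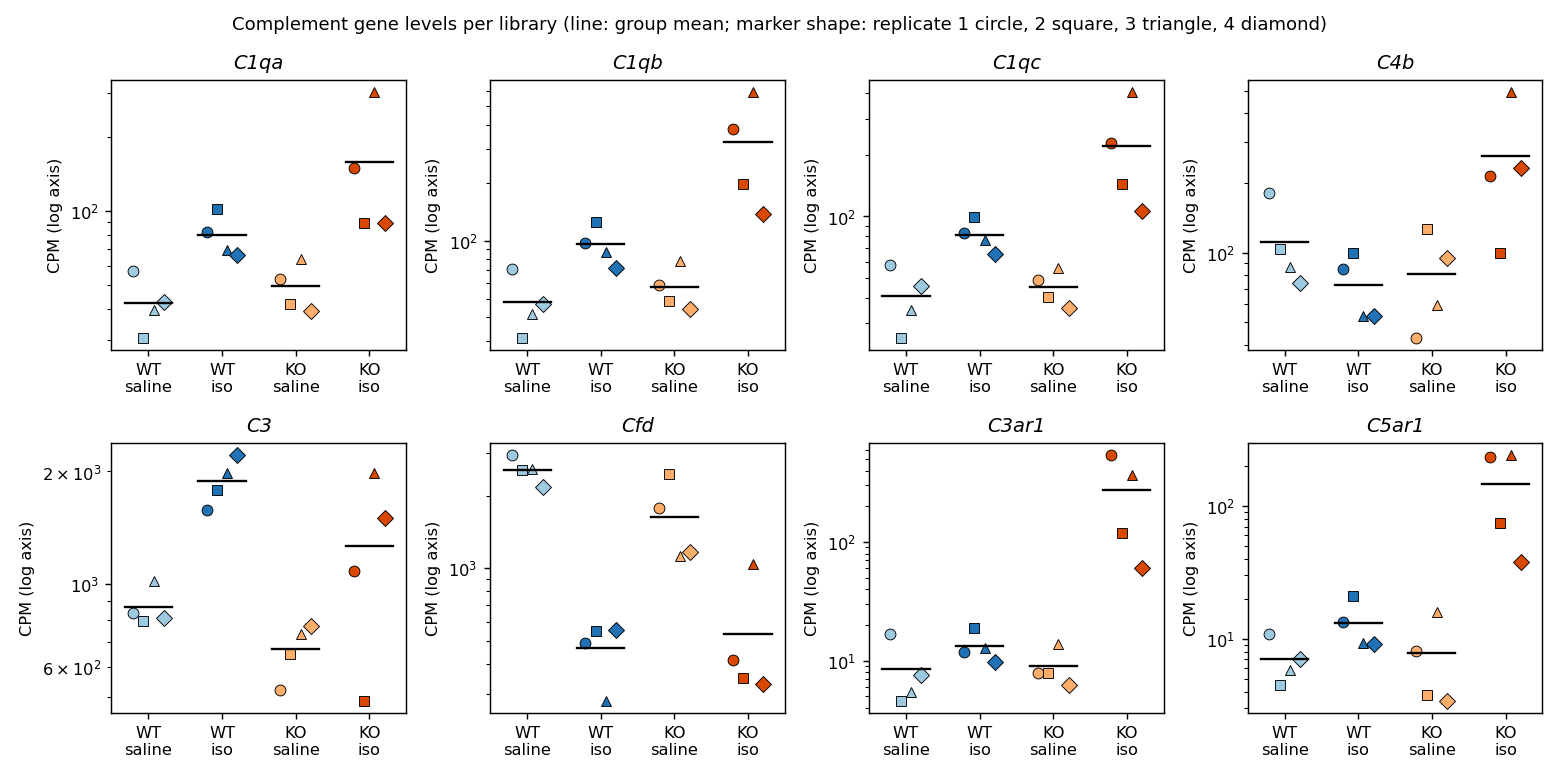
Level of each measured complement gene in the 16 libraries (CPM, log axis), by group, with 1 point per library and a bar at the group mean; "iso" stands for isoproterenol. Both receptor genes are near 10 CPM in 3 groups and reach 537 and 241 CPM in KO isoproterenol, while Cfd falls with isoproterenol in both genotypes.

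The receptors, the C1q chains and C4b rose with isoproterenol in KO, and Cfd fell in both genotypes. In WT, 2 of the 8 measured members, C1qc and C3, were called higher and 1, Cfd, was called lower, at an adjusted p under 0.05 in limma over all genes. Of all genes tested, 7.6% were called higher and 8.98% lower in that comparison. In KO, 6 members were called higher (C1qa, C1qb, C1qc, C4b, C3ar1 and C5ar1) and Cfd was called lower, where 23.8% of all genes were called higher and 24.8% lower. The median log2 difference of the members was 0.91 in WT and 1.86 in KO, against -0.018 and -0.0021 over all genes. Scaling by library totals in place of the authors' factors moved the median of all genes to -0.13 in WT and 0.18 in KO, and the share of called genes that were higher from 45.8% to 30.6% in WT and from 48.9% to 60.5% in KO. Every member kept its direction in both comparisons under that scaling.

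**Figure D2:**
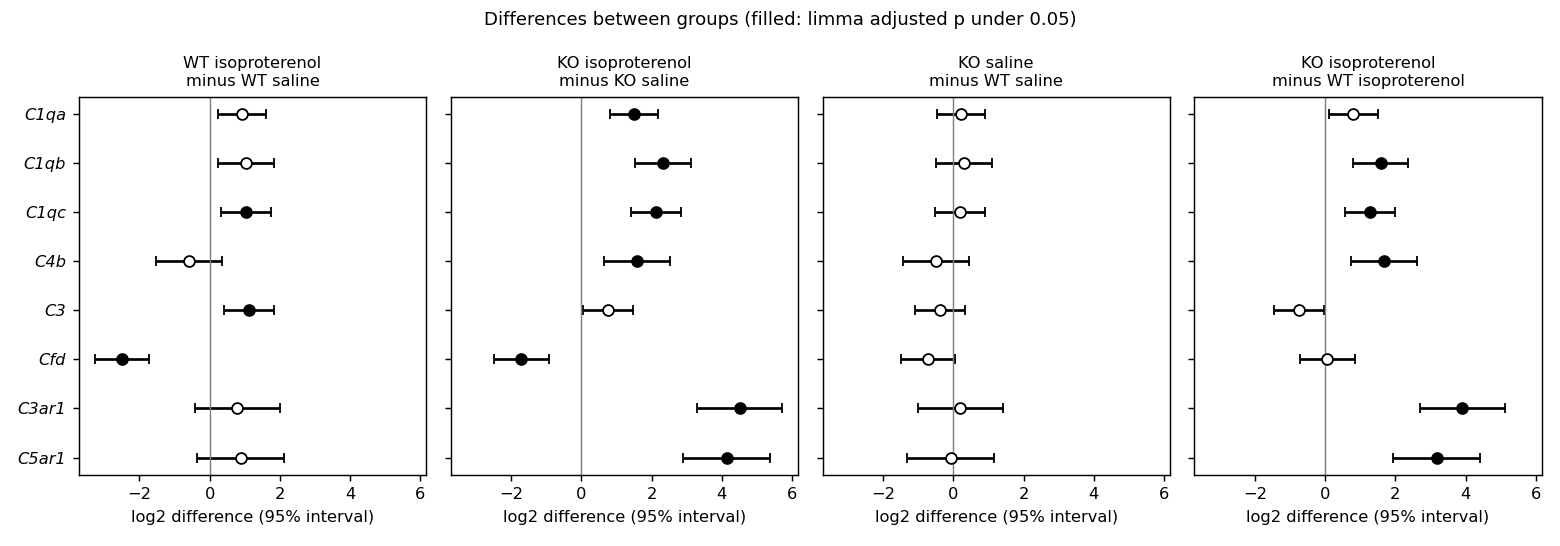
Log2 difference of each measured member with its 95% interval in the limma comparisons, filled where the adjusted p is under 0.05. The 2 receptors lie farthest to the right in KO isoproterenol against KO saline, at 4.51 and 4.13, and Cfd lies to the left of 0 under isoproterenol in both genotypes.

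C1qa, C1qb and C1qc encode the chains of C1q, the recognition molecule of the classical pathway. The genes lie side by side on mouse chromosome 4, in the order C1qb, C1qc, C1qa, with Epha8 next to C1qa (order from RefSeq). The promoters of C1qb and C1qc are shown because these 2 chains had larger differences with isoproterenol in KO than the neighbouring C1qa, whose promoter was not analysed here. The 250 bases before the RefSeq start are from RefSeq on build GRCm38.p6, on the minus strand of chr4:136886201-136886450 for C1qb and chr4:136892915-136893164 for C1qc. Capitals mark the core GAGGAA of sites for PU.1, a transcription factor of myeloid cells, or its reverse complement.
C1qb: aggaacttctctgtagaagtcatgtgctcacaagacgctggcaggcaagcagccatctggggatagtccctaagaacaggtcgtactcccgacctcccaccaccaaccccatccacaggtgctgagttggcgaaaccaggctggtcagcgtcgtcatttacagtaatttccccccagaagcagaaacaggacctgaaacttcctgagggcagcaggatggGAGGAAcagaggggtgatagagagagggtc
C1qc: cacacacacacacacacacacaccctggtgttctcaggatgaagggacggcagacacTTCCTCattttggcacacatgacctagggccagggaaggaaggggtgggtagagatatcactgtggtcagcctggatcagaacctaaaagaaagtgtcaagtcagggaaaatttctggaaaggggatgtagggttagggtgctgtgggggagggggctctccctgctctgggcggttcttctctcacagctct
The core began 30 bases before the start in C1qb, on the strand of the gene, and 193 bases before the start in C1qc, on the opposite strand. Such a match is common, since 23.3% of the 32851 mouse promoters of this length hold one on either strand, and it describes the letters only. The short element TGACG, the first part of a cAMP response element, was found in C1qb alone of the 6 members with a promoter sequence, 99 bases before the start on the opposite strand, and 17.8% of all promoters hold it. A match to TTGCNNAA, a C/EBP pattern held by 9.56% of all promoters, was found only in C3, 45 bases before its start. No match to GAAANNGAAA, TTCNNNGAA or GGGNNTTCC was found in the windows of C1qb, C1qc, C3, Cfd, C3ar1 or C5ar1, and no 2 of the matches overlapped.

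In WT libraries the C1q chains were about 2-fold higher with isoproterenol, and the groups did not overlap for any of the 3. C1qc (ENSMUSG00000036896) was at 57.7, 25.5, 34.8 and 45.5 CPM in WT saline replicates 1 to 4 and at 83.3, 99.3, 76.7 and 65.9 CPM in WT isoproterenol. Its rise was 1.04 on the log2 scale (SE 0.34, limma adjusted p = 0.0467). Same-numbered WT libraries deviated together and were taken as pairs, which the sample titles do not state. With that pairing in the fit the limma adjusted p of C1qc was 0.0847. The call was also lost in 11 of the 16 fits that each left out 1 library, among them each WT library except saline replicate 1, where the log2 difference stayed between 0.84 and 1.14. C1qa (ENSMUSG00000036887) was at 57.1, 30.7, 39.8 and 42.7 CPM in WT saline and at 82.0, 102, 69.8 and 66.5 CPM in WT isoproterenol, a difference of 0.93 with a 95% interval of 0.24 to 1.61 and a limma adjusted p of 0.0623. C1qb (ENSMUSG00000036905) was at 71.6, 31.3, 41.7 and 46.9 CPM in WT saline and at 97.5, 125, 87.7 and 71.9 CPM in WT isoproterenol, a difference of 1.03 with an interval of 0.24 to 1.83 and a limma adjusted p of 0.0728. All 4 WT isoproterenol libraries were thus above all 4 WT saline libraries for each chain, and saline replicate 1 was the highest of its group for each. The margin was narrow for C1qb, at 71.9 against 71.6 CPM. Here and below, the share of all genes whose groups did not overlap is not given.

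In KO the 3 chains rose with isoproterenol, with larger folds for C1qb and C1qc than for C1qa. C1qa was at 53.2, 41.8, 63.7 and 39.2 CPM in KO saline and at 149, 89.3, 303 and 89.7 CPM in KO isoproterenol, and it rose 2.84-fold (log2 1.51, SE 0.32, limma adjusted p = 0.00148). C1qb was at 58.7, 48.8, 78.2 and 44.4 CPM in KO saline and at 381, 196, 591 and 138 CPM in KO isoproterenol, a 4.98-fold rise (log2 2.32, SE 0.37, limma adjusted p = 1.82e-04). C1qc was at 48.8, 40.3, 55.9 and 35.8 CPM in KO saline and at 229, 144, 406 and 106 CPM in KO isoproterenol, a 4.36-fold rise (log2 2.12, SE 0.34, limma adjusted p = 1.59e-04). Replicate 3 held the highest level of each chain in KO isoproterenol, and no KO isoproterenol library overlapped KO saline. Without KO isoproterenol replicate 1 the log2 rises were 1.47, 2.17 and 2.04 for C1qa, C1qb and C1qc, and each call remained. Over the 16 fits that each left out 1 library the lowest rises were 1.13, 1.95 and 1.77, and no call was lost.

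The proportions of the chains differed in KO isoproterenol, a comparison chosen after the values were seen. The ratio of C1qb to C1qa, both in CPM, was 1.02 to 1.26 across the 12 libraries of the other 3 groups and 2.56, 2.20, 1.95 and 1.54 in KO isoproterenol replicates 1 to 4. All 4 KO isoproterenol libraries thus lay above the other 12. The log2 ratio was 0.81 higher than in KO saline (exact two-sided permutation p = 0.0286, the smallest that 4 against 4 libraries can give, 0.0571 after adjustment over 8 ratio tests). The ratio of C1qc to C1qa was 0.832 to 1.10 in the other groups and 1.54, 1.61, 1.34 and 1.19 in KO isoproterenol, a log2 difference of 0.62 from KO saline with the same exact permutation p of 0.0286 and adjusted p of 0.0571. Per kilobase of exon, C1qa made up 35.8% to 41.3% of the summed C1q signal outside KO isoproterenol and 23.4% to 32.2% within it, while C1qb made up 40.0% to 44.3% and 47.3% to 57.2%. The share of C1qc was 17.9% to 21.8% outside KO isoproterenol and 19.4% to 21.8% within it, so the shares that stood apart were those of C1qa and C1qb. Without replicate 1 the log2 difference of the C1qb to C1qa ratio was 0.70.

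Macrophage markers moved with the C1q genes. The summed level of 13 macrophage markers was 291 to 676 CPM (WT saline), 605 to 1075 (WT isoproterenol), 378 to 657 (KO saline) and 1463 to 11436 (KO isoproterenol). None was at 0 reads in any library. With isoproterenol 2 of 13 rose in WT and 12 of 13 in KO, against 7.6% and 23.8% of all genes. Bulk tissue cannot tell more cells of a type from more RNA per cell. The C1q chains were therefore also set against these markers within each library, as the mean log2 CPM of the 3 chains minus that of the 13 markers. That difference was 1.27 to 1.39 (WT saline), 1.5 to 1.60 (WT isoproterenol), 1.3 to 1.49 (KO saline), and -0.31, 0.37, 0.95 and 1.08 in KO isoproterenol replicates 1 to 4. Every KO isoproterenol library was below every other library, so C1q rose less than the markers did. The log2 difference between KO isoproterenol and KO saline was -0.90 (exact two-sided permutation p = 0.0286, 0.0490 after adjustment over 12 tests). It was -0.62 without KO isoproterenol replicate 1, and -0.55 with an exact permutation p of 0.0571 when Fcgr1, Msr1, Cd14 and Lyz2 were left out of the marker list. In WT, the chains stood 0.23 higher against the markers with isoproterenol than with saline (exact permutation p = 0.0286, adjusted p = 0.0490). Against Adgre1, Csf1r and Cd68 alone the difference was -0.049 (exact permutation p = 0.657). Neither permutation test used the pairing of the WT libraries.

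**Figure D3:**
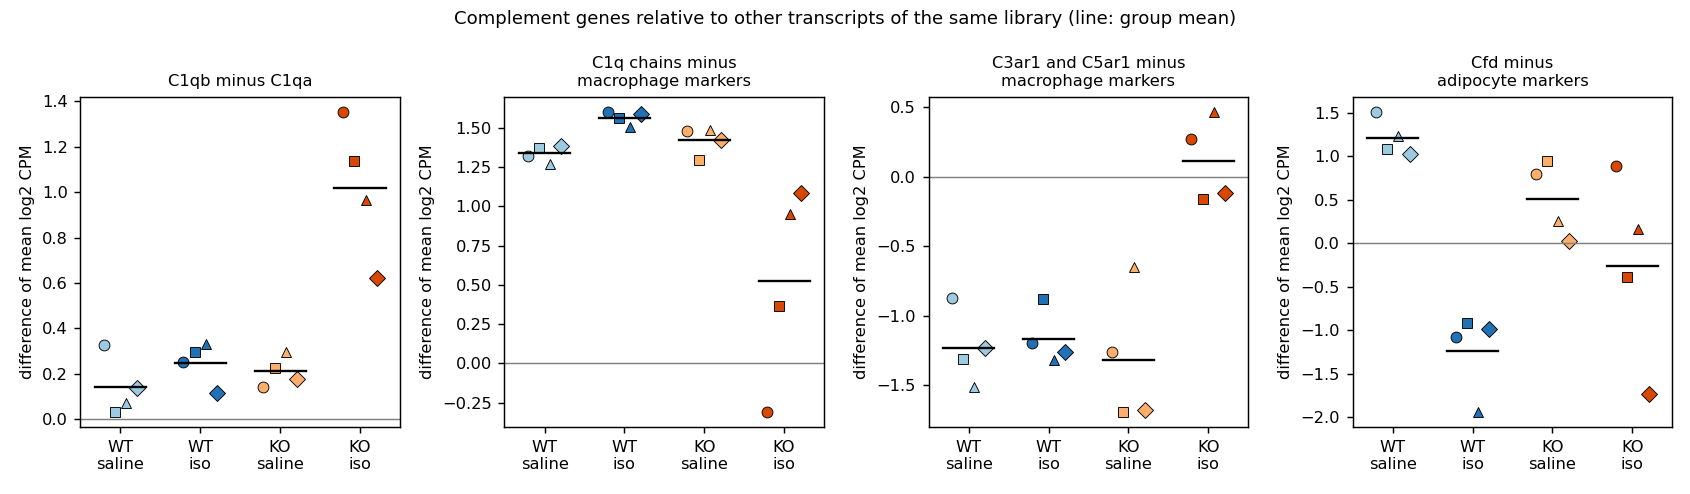
Log2 level of the C1q chains and of the 2 anaphylatoxin receptors minus the mean of 13 macrophage markers, and of Cfd minus the mean of 12 adipocyte markers, with 1 point per library; KO isoproterenol replicates 1 to 4 are drawn as a circle, a square, a triangle and a diamond. In KO isoproterenol the C1q values fall to between -0.31 and 1.08 and the receptor values rise to between -0.16 and 0.47.

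C4b encodes complement C4, the substrate of C1s and of the lectin pathway proteases. It rose with isoproterenol in KO and was not called in WT, and the interaction test given below called that difference. C4b (ENSMUSG00000073418) was at 182, 103, 87.1 and 73.8 CPM in WT saline and at 85.3, 99.3, 53.5 and 53.0 CPM in WT isoproterenol, where the groups overlapped and the log2 difference of -0.58 had an interval of -1.52 to 0.35 and a limma adjusted p of 0.406. In KO it was at 42.9, 126, 59.4 and 94.4 CPM with saline and at 215, 99.6, 494 and 233 CPM with isoproterenol. C4b rose 3.00-fold there (log2 1.59, SE 0.44, limma adjusted p = 0.00781), although KO isoproterenol replicate 2 lay below KO saline replicate 2. Without KO isoproterenol replicate 1 the log2 rise was 1.60. Over the 16 fits that each left out 1 library it ranged from 1.20 to 1.97, with a highest limma adjusted p of 0.0296. Stromal cells make C4. The 10 fibroblast and preadipocyte markers, none at 0 reads, summed to 1399 to 1848 CPM in KO saline and 1185 to 5693 CPM in KO isoproterenol. Of these, 4 of 10 were called higher, against 23.8% of all genes, and the part of stromal cells in the C4b level was not tested. C4a, a near-identical copy annotated as a transcribed pseudogene, stood at means of 1.73 to 1.89 CPM in the 4 groups, and how reads shared by the 2 copies were counted is not stated in the labels, so the C4b values carry that uncertainty.

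Some of the other genes that act beside C1q and C4 also rose in KO. Of 7 measured classical and lectin pathway genes outside the members, 3 rose with isoproterenol in KO (C1ra, C2 and Masp1) and 0 fell, and in WT 1 rose and 1 fell. The shares over all genes were 23.8% higher and 24.8% lower in KO, and 7.6% higher and 8.98% lower in WT. C1ra, a protease of the C1 complex, rose from 27.8 ± 4.43 to 70.8 ± 37.2 CPM (SD, n = 4; log2 1.22, limma adjusted p = 0.00293). C2, the partner of C4 in the classical convertase, rose from 3.44 ± 0.67 to 8.29 ± 2.99 CPM in KO (log2 1.21, limma adjusted p = 0.00589) and fell from 4.01 ± 1.70 to 1.73 ± 0.45 CPM in WT (log2 -1.16, limma adjusted p = 0.0227). C1s1, which encodes the C1s protease, was at 69.5 ± 7.84 CPM in KO saline and 107 ± 64.6 CPM in KO isoproterenol and was not called.

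C3, the protein on which all 3 activation routes converge, was higher with isoproterenol in WT. C3 (ENSMUSG00000024164) was at 837, 796, 1021 and 809 CPM in WT saline and at 1580, 1779, 1984 and 2208 CPM in WT isoproterenol. The lowest WT isoproterenol library stood above the highest WT saline library, and C3 rose 2.17-fold (log2 1.12, SE 0.33, limma adjusted p = 0.0319). With pairing of the WT libraries in the fit the adjusted p was 0.0697, and the call was lost without any 1 of the WT saline libraries or of WT isoproterenol replicates 2, 3 and 4, where the log2 difference was 1.04 to 1.20. In KO, C3 was at 519, 651, 733 and 774 CPM with saline and at 1086, 486, 1982 and 1504 CPM with isoproterenol. Replicate 2 of KO isoproterenol was the lowest of all 16 libraries and the other 3 were above every KO saline library. The log2 difference of 0.76 (interval 0.052 to 1.47) had a limma adjusted p of 0.0710. It became 1.16 with an adjusted p of 0.00173 without replicate 2, 0.48 with an adjusted p of 0.231 without replicate 3, 0.77 with an adjusted p of 0.0826 without replicate 1, and 0.94 with an adjusted p of 0.0151 under scaling by library totals. Hepatocyte markers, measured because liver is the main source of circulating C3, were uneven in WT saline: Alb and Apoc3 summed to 0.705, 0.361, 151 and 25.7 CPM in its replicates 1 to 4. They summed to 0.978 to 7.0 CPM (WT isoproterenol), 0.363 to 1.33 (KO saline) and 0.927 to 1.88 (KO isoproterenol). WT saline replicate 3 thus held both the highest hepatocyte sum and the highest C3 level of its group, and the part of these cells in the C3 level was not tested.

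Cfd, which encodes factor D or adipsin, was the most abundant member and fell with isoproterenol in both genotypes. Cfd (ENSMUSG00000061780) was at 2945, 2559, 2574 and 2167 CPM in WT saline and at 487, 550, 280 and 553 CPM in WT isoproterenol. The highest WT isoproterenol library was below the lowest WT saline library by a wide margin, and Cfd was 5.64-fold lower (log2 -2.50, SE 0.36, limma adjusted p = 4.47e-04). In KO it was at 1782, 2458, 1120 and 1166 CPM with saline and at 414, 349, 1043 and 331 CPM with isoproterenol. Those groups did not overlap either, with isoproterenol replicate 3 close beneath the lowest saline library. Cfd was 3.27-fold lower there (log2 -1.71, SE 0.36, limma adjusted p = 0.00140), and -1.65 on the log2 scale without KO isoproterenol replicate 1. A difference between the 2 falls was not called by the interaction test (log2 0.79, interval -0.31 to 1.88, limma adjusted p = 0.275).

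Most adipocyte markers were lower beside Cfd in KO isoproterenol, and few were called in WT. Of 12 pan-adipocyte markers, 1 rose and 1 fell with isoproterenol in WT, against 7.6% and 8.98% of all genes. Their summed level was 27454 to 31557 CPM in WT saline and 33425 to 38645 in WT isoproterenol. In KO 7 fell and 1 rose, against 24.8% and 23.8% of all genes. The sums were 28929 to 31046 CPM with saline and 6547 to 51464 with isoproterenol, and no marker was at 0 reads. The log2 level of Cfd minus the mean of these markers was 1.03 to 1.51 in WT saline and -1.94 to -0.92 in WT isoproterenol. The difference was -2.45 (exact two-sided permutation p = 0.0286, adjusted p = 0.0490, without the pairing of the WT libraries). In KO saline the level of Cfd against the markers was 0.79, 0.95, 0.25 and 0.026, and in KO isoproterenol 0.88, -0.38, 0.16 and -1.73. The KO groups overlapped, replicate 1 being the highest of its group, and their difference of -0.77 had an exact permutation p of 0.286 (-1.15 and 0.0571 without replicate 1). Leaving out replicate 4 of KO isoproterenol, the lowest of its group, gave -0.28 with an exact permutation p of 0.571, so the size of this difference rested on single libraries. Within the saline libraries, Cfd against these markers was 0.71 lower in KO than in WT with no overlap (log2 -0.71, exact permutation p = 0.0286, adjusted p = 0.0490). With Adipoq, Plin1 and Fabp4 alone the saline difference was -0.75 with an exact permutation p of 0.0857.

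Cfp, which encodes properdin and is no member of the list, is the other measured gene of the alternative pathway. It rose from 19.9 ± 6.19 to 48.7 ± 11.8 CPM in WT (SD, n = 4; log2 1.31, limma adjusted p = 0.0469, but 0.0889 with the WT libraries paired) and from 22.7 ± 3.41 to 149 ± 103 CPM in KO (log2 2.40, limma adjusted p = 3.61e-04). Properdin is made largely by leukocytes, and across the 16 libraries Cfp was among the 3 genes whose log2 level was most like that of C1qa (Pearson r = 0.951) and C1qc (r = 0.974).

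C3ar1 and C5ar1 encode the receptors of the fragments C3a and C5a, and they had the largest log2 differences of all measured members. C3ar1 (ENSMUSG00000040552) was at 16.8, 4.56, 5.44 and 7.51 CPM in WT saline, 11.8, 19.0, 12.9 and 9.77 in WT isoproterenol, and 7.83, 7.87, 13.9 and 6.26 in KO saline. In KO isoproterenol replicates 1 to 4 it was at 537, 120, 370 and 59.9 CPM. Even the lowest of these 4 libraries was above the highest of the other 12, and the group itself spread over nearly an order of magnitude. C3ar1 was 22.7-fold higher in KO isoproterenol than in KO saline (log2 4.51, SE 0.57, limma adjusted p = 2.3e-05), and 4.02 on the log2 scale without replicate 1. In WT the log2 difference with isoproterenol was 0.79, with overlapping groups, an interval of -0.42 to 2.0 and a limma adjusted p of 0.379.

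C5ar1 had the same shape. C5ar1 (ENSMUSG00000049130) was at 10.8, 4.47, 5.81 and 7.10 CPM in WT saline, 13.3, 20.8, 9.35 and 9.14 in WT isoproterenol, and 8.11, 3.79, 15.9 and 3.39 in KO saline. In KO isoproterenol it was at 232, 74.4, 241 and 38.0 CPM, again above all other libraries. The rise in KO was 17.6-fold (log2 4.13, SE 0.58, limma adjusted p = 6.0e-05), and 3.78 on the log2 scale without replicate 1. In WT the difference was 0.89 (interval -0.35 to 2.13, limma adjusted p = 0.328). Replicates 1 and 3 held the highest levels of both receptors in KO isoproterenol and replicate 4 the lowest.

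The receptors rose beyond the macrophage markers in KO. The mean log2 level of C3ar1 and C5ar1 minus that of the 13 markers was -1.51 to -0.88 (WT saline), -1.32 to -0.88 (WT isoproterenol), -1.70 to -0.65 (KO saline), and 0.27, -0.16, 0.47 and -0.12 in KO isoproterenol. No library of the other groups reached the lowest KO isoproterenol value. The log2 difference from KO saline was 1.44 (exact two-sided permutation p = 0.0286, adjusted p = 0.0490). Leaving out any 1 of the 4 KO isoproterenol libraries gave 1.32 to 1.53 with an exact permutation p of 0.0571 each. In WT the difference was 0.068 (exact permutation p = 0.714). Neutrophils also carry C5aR1, and their 7 measured markers summed to 9.83 to 14.9 CPM (WT saline), 22.2 to 39.8 (WT isoproterenol), 7.29 to 11.7 (KO saline) and 71.7 to 468 (KO isoproterenol). Of these markers, 6 of 7 were called higher with isoproterenol in KO, against 23.8% of all genes. Up to 3 of them were at 0 reads in a KO saline library and none was at 0 in an isoproterenol library. The part of either cell type in the receptor levels was not tested.

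Other complement receptors rose with them. Of 6 measured receptor genes outside the members, 4 rose in KO and 0 in WT, where 23.8% and 7.6% of all genes rose. Itgam and Itgb2, the chains of the iC3b receptor CR3, went from 3.45 ± 0.41 to 85.0 ± 73.5 CPM (log2 4.14, limma adjusted p = 2.48e-05) and from 16.1 ± 7.28 to 305 ± 279 CPM (log2 3.82, limma adjusted p = 1.29e-04). C5ar2, the second C5a receptor, rose from 0.80 ± 0.40 to 9.29 ± 7.88 CPM (log2 3.19). Cd93, a surface protein of endothelial and myeloid cells first described as a C1q receptor, rose from 136 ± 24.6 to 404 ± 185 CPM (log2 1.48).

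Genotype alone was not accompanied by a called member under saline. In KO saline against WT saline 0 of 8 members passed the limma test, none had an unadjusted p under 0.05, and 0.0977% of all genes were called. The fit used 1 estimate of spread per gene over all 4 groups. The variable KO isoproterenol libraries therefore also entered these tests and intervals, and more genes were called with only the 2 saline groups in the fit. Among the members, the largest log2 difference was that of Cfd at -0.72 (interval -1.49 to 0.054, limma adjusted p = 0.760). C3 was 0.38 lower on the log2 scale in KO saline (log2 -0.38, interval -1.09 to 0.33), and its 4 KO saline libraries, at 519 to 774 CPM, lay below the 4 WT saline libraries, at 796 to 1021 CPM. For the C1q chains the intervals ran from -0.46 to 0.91 for C1qa, -0.50 to 1.09 for C1qb and -0.53 to 0.91 for C1qc. The intervals of the receptors were wider, from -1.02 to 1.40 for C3ar1 and from -1.31 to 1.17 for C5ar1.

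Under isoproterenol, KO libraries held more of 5 members than WT libraries, C1qb, C1qc, C4b, C3ar1 and C5ar1, where 21.6% of all genes were higher and 23.1% lower. C3ar1 was 15.02-fold higher (log2 3.91, limma adjusted p = 1.2e-04) and C5ar1 9.04-fold higher (log2 3.18, limma adjusted p = 5.92e-04). C4b was 3.18-fold, C1qb 2.98-fold and C1qc 2.42-fold higher, with limma adjusted p of 0.00639, 0.00336 and 0.00680. The WT and KO isoproterenol libraries did not overlap for any of these 5 genes. The 5 were picked by their calls on the same libraries, so the lack of overlap is no separate result. The share of all genes without overlap is not given. For C4b the margin was narrow, with the lowest KO library at 99.6 CPM and the highest WT library at 99.3 CPM. Without KO isoproterenol replicate 1 the log2 differences were 3.42 for C3ar1, 2.83 for C5ar1, 1.69 for C4b, 1.43 for C1qb and 1.19 for C1qc, and these 5 calls remained. In that fit C1qa differed by 0.77, C3 by -0.73 and Cfd by 0.13, with limma adjusted p of 0.0894, 0.106 and 0.810. C1qa differed by 0.81 (limma adjusted p = 0.0533) and its groups overlapped. C3 differed by -0.74 (interval -1.45 to -0.035, limma adjusted p = 0.0815), and it was lower in KO at -1.02 with an adjusted p of 0.0199 without KO isoproterenol replicate 3 and at -0.88 with 0.0438 without replicate 4, while without replicate 2 it was -0.34 and not called. Cfd was not called between the 2 isoproterenol groups, at 467 ± 128 CPM in WT and 534 ± 341 CPM in KO (log2 0.067, interval -0.71 to 0.84, limma adjusted p = 0.894). This comparison shares its libraries with the comparisons of isoproterenol against saline.

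The test of whether the isoproterenol difference itself depended on genotype called 3 members, C3ar1, C5ar1 and C4b, all more positive in KO, where 10.9% of all genes were called in that direction and 13.8% in the other. The differences of differences were 3.72 for C3ar1 (SE 0.80, limma adjusted p = 0.00585), 3.24 for C5ar1 (SE 0.82, limma adjusted p = 0.0127) and 2.17 for C4b (SE 0.62, limma adjusted p = 0.0213). They were 3.23, 2.89 and 2.19 without KO isoproterenol replicate 1. For C1qb and C1qc the differences were 1.28 (interval 0.16 to 2.41, limma adjusted p = 0.0871) and 1.08 (interval 0.068 to 2.10, limma adjusted p = 0.107). Both passed without KO isoproterenol replicate 4, at 1.62 with an adjusted p of 0.0131 and 1.37 with an adjusted p of 0.0206. C1qa differed by 0.58 (interval -0.39 to 1.55) and C3 by -0.36 (interval -1.36 to 0.64).

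Terminal pathway genes and the regulators that protect host cells are the remaining roles. Of the 46 further complement genes listed, 26 were measured, of which 2 rose and 4 fell with isoproterenol in WT and 9 rose and 6 fell in KO. Of all genes, 7.6% rose and 8.98% fell in WT, and 23.8% rose and 24.8% fell in KO. Pairing the WT libraries ended the WT call of Cfp alone among these 6. C8g, whose product is a chain of C8 in the membrane attack complex, fell from 21.6 ± 3.83 to 12.02 ± 2.31 CPM in WT (log2 -0.84, limma adjusted p = 0.0132) and from 22.5 ± 3.78 to 3.37 ± 0.97 CPM in KO (log2 -2.76). C7, another part of that complex, fell from 18.8 ± 9.04 to 6.91 ± 1.93 CPM in WT (log2 -1.35, limma adjusted p = 0.0159) and was at 10.3 ± 2.28 and 10.8 ± 4.46 CPM in KO saline and KO isoproterenol. Cd59a and Cd59b, paralogous genes for the surface inhibitor of the membrane attack complex, both fell in KO, from 136 ± 7.38 to 56.7 ± 37.5 CPM (log2 -1.51) and from 10.9 ± 2.37 to 1.79 ± 0.48 CPM (log2 -2.63). The other 4 measured membrane regulators, Cd55, Cd46, Cr1l and Csmd1, were not called in KO isoproterenol against KO saline.

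Soluble regulators split. In KO 1 of 4 measured rose and 3 fell, where 23.8% of all genes rose and 24.8% fell. Serping1, the C1 inhibitor that blocks C1r and C1s, rose from 101 ± 9.84 to 352 ± 202 CPM (log2 1.66). Cpn2, the larger subunit of the carboxypeptidase that inactivates C3a and C5a, went from 93.2 ± 16.2 to 27.9 ± 30.3 CPM (log2 -2.53, limma adjusted p = 0.00372), with overlapping groups. Clu, or clusterin, fell in both genotypes, from 83.1 ± 40.5 to 19.3 ± 2.56 CPM in WT (log2 -1.995) and from 38.3 ± 12.8 to 21.8 ± 4.15 CPM in KO (log2 -0.78). Between the isoproterenol groups, the further complement genes with the largest differences were Itgb2 (log2 3.52), Itgam (3.15), C5ar2 (2.56) and C2 (2.23), higher in KO, and Cpn2 (-3.07), Cd59b (-2.52), C8g (-1.86) and Fcna (-1.41), lower in KO, of 9 called higher and 5 called lower, where 21.6% and 23.1% of all genes were called. In the interaction test 7 of the 26 were called more positive in KO, led by Itgb2 (3.29), C5ar2 (3.21), Itgam (2.87) and C2 (2.38), and 3 more negative, Cpn2, Cd59b (-2.29) and C8g (-1.92), against 10.9% and 13.8% of all genes. The isoproterenol difference depended on genotype for Serping1 (log2 1.62, limma adjusted p = 0.0101), Clu (1.21, 0.0404) and Cpn2 (-2.94, 0.0255).

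**Figure D4:**
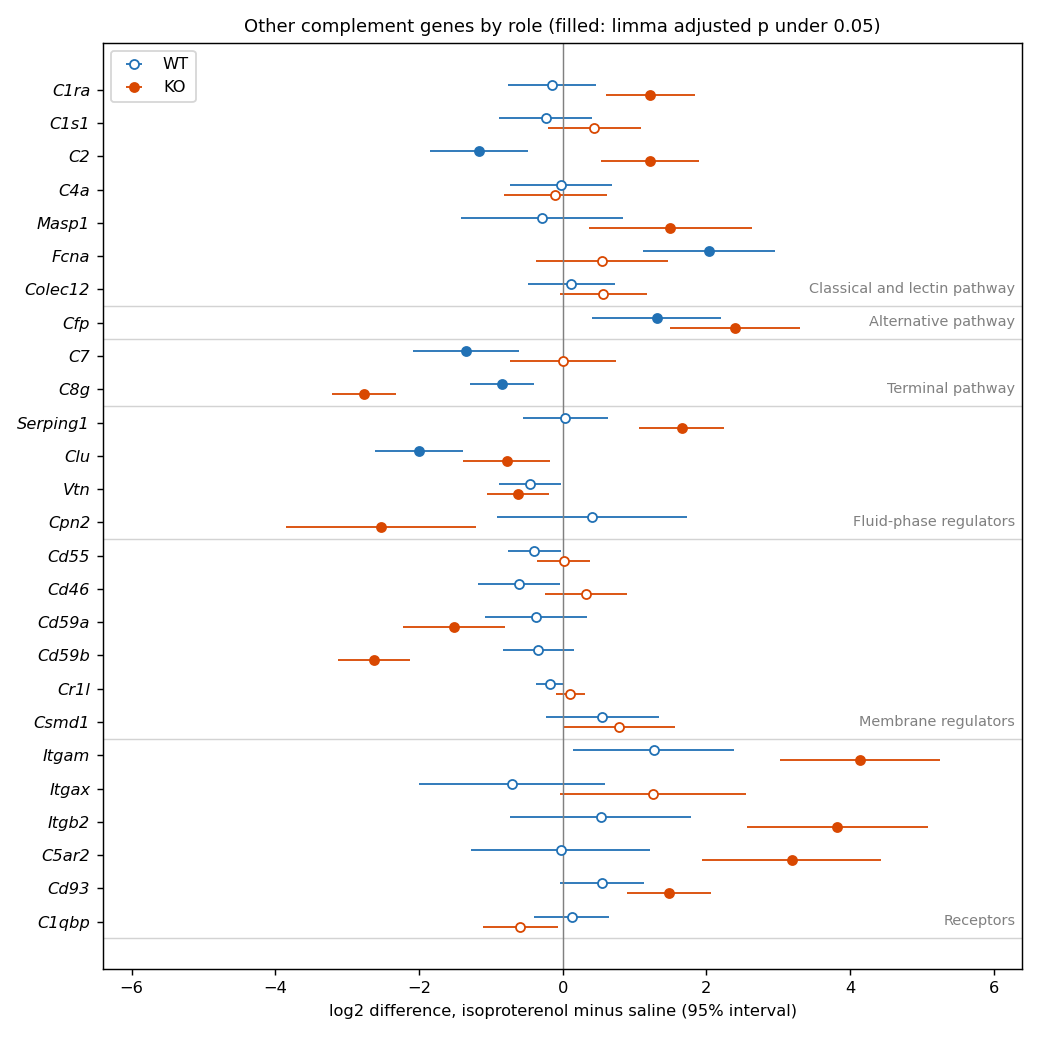
Log2 difference with isoproterenol in WT and in KO for the 26 further complement genes, ordered by role, filled where the limma adjusted p is under 0.05. Receptor genes reach 4.14 in KO, and the terminal and membrane regulator genes that pass lie to the left of 0.

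Across the 16 libraries the members varied in blocks. The points share the 4 groups and the authors' scaling, so correlations are given as descriptions, over all libraries and again after each library's group mean was subtracted. The C1q chains had Pearson r of 0.976 to 0.994 with each other, and 0.958 to 0.983 after subtraction. C3ar1 and C5ar1 had an r of 0.98 with each other and 0.90 after subtraction. Between chains and receptors r was 0.89 to 0.97, and 0.80 to 0.92 after subtraction. C3 had an r of 0.37 to 0.50 with the C1q chains and 0.21 with C3ar1. Cfd had an r of -0.56 with C1qa over all libraries and 0.60 after subtraction, so the inverse relation was one between group means and not one within groups.

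The genes most like each member separate these blocks further. After C1qc, C1qb was most like Fcgr3 (r = 0.987), a low-affinity receptor for immunoglobulin G, and Adgre1 (r = 0.979), the macrophage antigen F4/80. C3ar1 was most like Pirb, Slc37a2 and Cd53 (r = 0.995, 0.994 and 0.993). C5ar1 was most like BE692007, Abcc3 and Laptm5 (r = 0.987, 0.985 and 0.982). C4b was most like the secreted matrix gene Ccdc80 (r = 0.915), C1ra (r = 0.900) and Ffar2 (r = 0.875). C3 had weaker neighbours, Selenof, Unc5a and Zfp952 (r = 0.883, 0.871 and 0.866). Cfd was most like Serpine2, Cst3 and Zfp316 (r = 0.939, 0.936 and 0.934), and after subtraction of group means these fell to 0.666, 0.776 and 0.547.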

How the data were processed

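RNA from interscapular BAT was sequenced as stranded mRNA libraries (75 bp, single-read), per the labels' protocols. The deposited values are log2 CPM for 15350 genes, and the submitters' processing notes name STAR, limma and mm39; versions, annotation and counter are not given there. The authors' log2 values equalled whole reads plus 0.5 times a library step (100% within 1e-06 of a whole number), with library sizes 0.854 to 1.25 times the read totals. Printed CPM include that 0.5 read. Intervals cover spread between libraries, and 3 reads, 0.143 to 0.345 CPM, set the counting floor.

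Symbols (15320 of 15350) and exon lengths came from GENCODE M21, of another build than the reads, and gene order came from RefSeq. Genotype and treatment labels set the groups and sample titles the replicate numbers, while headers of 3 KO saline columns carry other numbers. The treatment protocol text of the saline samples describes isoproterenol infusion, and their treatment label was used instead. limma 3.58.1 (R 4.3.3, statmod 1.5.0) was fitted to the log2 values with 4 group means over 16 libraries, trended robust moderation, 5 contrasts and Benjamini-Hochberg adjustment over all genes. It recovered known changes planted in WT isoproterenol alone, in data simulated from these libraries with the same dispersion for every gene and library. The wider spread of KO isoproterenol was not simulated, so the contrasts with that group were not checked in this way. Marker differences were tested by exact two-sided permutation over 70 arrangements. Same-numbered WT libraries deviated together (r 0.210 to 0.535), so their numbers were taken as pairs. Blocked limma values stand beside the WT limma results they change, while the permutation tests did not use the pairs. The design had foreseen a count test had the files held counts; the deposited log2 CPM were tested with limma, and voom weights on the recovered reads were an added alternative.

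All 9 members are named. Of the other complement genes, the 4 called genes with the largest log2 difference in each direction of a contrast are named, and others by role after their values were seen; part of the list fixed for this is not reported here. Likeness gives the 3 genes with the highest r among genes with a mean log2 CPM of at least 1. Members and lists were chosen with earlier results of these data known.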

Additional observations from a re-analysis of the deposited data

Results flagged for a closer look

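For 3 members the response to isoproterenol differed between the genotypes by the interaction term of the limma fit. The difference of responses (KO minus WT, log2) was 3.72 for C3ar1, 3.24 for C5ar1 and 2.17 for C4b, with adjusted p of 0.00585, 0.0127 and 0.0213. In each of the 16 fits that left out 1 library these 3 calls remained, with ranges of 3.23 to 4.28, 2.87 to 3.76 and 1.79 to 2.56, and the highest adjusted p, 0.0480 for C4b, came without WT saline replicate 1. Summed macrophage markers ranged from 1463 to 11436 CPM in KO isoproterenol and from 291 to 1075 CPM in the other groups. Of the 13, 8 were called more positive in KO by the same interaction test, against 10.9% of all genes. In KO isoproterenol, Cfd stood at 1043 CPM in replicate 3 and at 414, 349 and 331 CPM in replicates 1, 2 and 4. The gap between replicate 3 and the nearest library was 0.883 of the group's range in CPM, past Dixon's limit for 4 samples, and 0.804 of it on the log2 scale on which the tests were run, which is within the limit. No other member in any group passed the limit on either scale, and chance alone passes it in about 1 in 20 groups.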

How the results depend on the processing

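The count of members called lower with isoproterenol stayed at 1 in both genotypes under library totals, log2(CPM + 1), a filter on low reads, fits on only the 2 groups compared, the replicate block and voom weights. The count called higher in WT, 2, was the least stable: it was 1 under library totals, 4 with only the 2 groups compared, 4 with voom weights, 3 with the replicate block over all libraries, 0 with the block among WT libraries alone and 0 to 4 without 1 library (0 without any of replicates 2, 3 and 4 of either WT group). The count higher in KO, 6, was 7 under library totals and the replicate block. Under isoproterenol, without 1 library, 0 to 1 members were lower in KO than in WT, and 3 to 5 were called higher by the interaction test. Library totals moved the share of called genes that were higher from 48.3% to 66.6% between the isoproterenol groups and from 44.2% to 66.2% for the interaction, with all-gene medians of 0.27 and 0.34. Of all genes 1167 were called higher and 1379 lower in WT, and 4923 in either direction with only the 2 groups. In KO against WT saline 15 genes were called, 50 with only the 2 groups and 4 to 37 without 1 library.

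Small differences changed sign. For KO saline minus WT saline, C5ar1 was 0.0061 with voom weights, and without 1 library C1qc ranged from -0.016 to 0.38, C3ar1 from -0.044 to 0.58, C5ar1 from -0.51 to 0.24 and the C1qc to C1qa ratio from -0.096 to 0.022. For KO minus WT isoproterenol Cfd ranged from -0.31 to 0.24, and for the interaction C3 from -0.64 to 0.040. With 3 core markers the WT difference was -0.049 for C1q and -0.21 for the receptors against macrophage markers, and the saline difference of Cfd -0.75. Without 1 library, C1q ranged from -1.09 to -0.62 in KO, 0.062 to 0.13 between the saline groups and -1.23 to -0.76 between the isoproterenol groups, the receptors from -0.027 to 0.19 in WT, 1.31 to 1.67 in KO and -0.31 to 0.037 in saline, and Cfd from -1.15 to -0.28 in KO, -0.86 to -0.55 in saline and 0.59 to 1.46 with isoproterenol. C1q in KO was -0.55 without 4 macrophage markers, a list chosen after seeing the data, as were voom, the block among WT and the one with header numbers.

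Same-numbered KO libraries of the 2 treatments had correlated deviations of 0.033 to 0.239. The KO numbers were not taken as pairs, although the lowest WT value was 0.210. Between the genotypes, where no pairs were taken, same-numbered libraries had correlations of -0.431 to 0.025 with saline and -0.246 to 0.218 with isoproterenol. Values near the lowest WT value thus also occurred without pairing. The planned count models were not run, and limma with voom weights on the recovered reads was fitted in their place. Depth limits C5ar2, with as few as 3 reads in a KO saline library.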

Other observations

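Genes of the lectin pathway, the third route into complement, were low in this tissue. Fcna, which encodes ficolin A, a pattern recognition lectin of macrophages, was at 2.37 ± 0.68 CPM in WT saline and rose to 9.72 ± 2.55 CPM with isoproterenol (SD, n = 4; log2 2.04, limma adjusted p = 0.00542). In KO it was at 2.62 ± 1.10 and 4.36 ± 3.45 CPM and was not called, and under isoproterenol it was lower in KO than in WT (log2 -1.41, limma adjusted p = 0.0155), in contrast to the C1q chains. Masp1, a lectin pathway protease, rose from 0.74 ± 0.27 to 2.10 ± 0.99 CPM in KO (log2 1.501, limma adjusted p = 0.0290), with 4 to 65 reads per library. Colec12, a membrane collectin, was at 14.9 ± 2.39 and 24.3 ± 12.4 CPM in KO saline and KO isoproterenol and was not called. The interaction test did not call Fcna.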
